A study of Mus musculus with 16 samples.

Results

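The 10 genes described here encode components of activin and BMP signalling around Inhbb, out of 17655 gene symbols measured by RNA sequencing in mouse preSC, a precancerous cell of small cell lung cancer. They are the activin and inhibin subunit genes Inhbb, Inhba and Inha, the antagonist genes Fst and Chrdl1, the activin receptor genes Acvr1b, Acvr2a and Acvr2b, the BMP receptor gene Bmpr1a and the BMP target Id1. The 10 were chosen by name, with the lower Inhbb and higher Chrdl1 values of the Wnt5a cells known, so their levels in the empty and Wnt5a cells are a description and carry no p-value. Both groups were lung neuroendocrine cells positive for Chga, null for Rb1 and Trp53 and heterozygous null for Rbl2. The empty group (8 samples) carried a lentivirus with no insert, and the Wnt5a group (8 samples) carried a lentivirus with Wnt5a, a secreted Wnt ligand. Both groups received doxycycline at 1 µg/mL for 48 h before harvest. The labels do not say whether the lines were clones, pools or separate cultures, so p-values measure only the spread between these samples, which may be technical.

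Activins are dimers of inhibin beta subunits, and inhibins pair a beta subunit with the alpha subunit encoded by Inha. Activin binds a type II receptor, which recruits and phosphorylates a type I receptor that activates Smad2 and Smad3, whereas BMP receptors activate Smad1, Smad5 and Smad9 and so induce the Id genes. Antagonists act outside the cell: follistatin binds activins, and chordin-like proteins bind BMPs.

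The start regions of the beta subunit genes are shown first because both genes encode activin subunits while their levels lay far apart. Each sequence is the 250 bases before the transcription start in RefSeq (GRCm38.p6), 5′ to 3′ on the gene's strand, with every CG dinucleotide in capitals. Inhbb lies on the minus strand (chr1:119422249-119422498) and Inhba on the plus strand (chr13:16011601-16011850).
Inhbb: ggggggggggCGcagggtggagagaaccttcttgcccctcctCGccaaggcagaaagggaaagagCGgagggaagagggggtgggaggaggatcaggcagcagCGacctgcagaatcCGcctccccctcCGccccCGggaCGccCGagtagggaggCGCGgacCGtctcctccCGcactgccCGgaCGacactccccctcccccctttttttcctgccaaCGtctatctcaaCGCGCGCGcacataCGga
Inhba: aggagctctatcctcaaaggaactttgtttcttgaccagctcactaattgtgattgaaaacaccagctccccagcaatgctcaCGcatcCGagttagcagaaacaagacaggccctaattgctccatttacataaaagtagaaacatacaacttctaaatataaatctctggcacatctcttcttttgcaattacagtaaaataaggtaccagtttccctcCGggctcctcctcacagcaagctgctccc
The Inhbb window held 21 CG dinucleotides at 68% G and C, and the Inhba window held 3 at 43.2%. Among 32851 mouse windows of the same length the median was 6 CG at 52.4% G and C, 92.1% held at least 1 CG, 16.3% held as many as Inhbb or more, and 37.8% held as few as Inhba or fewer. RefSeq windows were found for 7 of the 10 genes. Inha held 4 CG, and the receptor genes held 24 (Acvr2b), 36 (Bmpr1a), 42 (Acvr1b) and 49 (Acvr2a). A count of CG dinucleotides describes these letters only.

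Values are normalised read counts as deposited. Recovered totals were 7526676 to 8181010 reads in the empty samples and 8743431 to 8859862 in the Wnt5a samples. Within a group, the counts of samples 1 to 4 agree within or near sampling noise, as do those of samples 5 to 8 (index of dispersion 0.987 to 1.05 in 24 pairs, where 1 is sampling noise, against 5.23 to 5.44 in the other 32). Each set of 4 was averaged and counted as 1 library, called A and B, so n = 2 per group. Wnt5a, the gene of the lentivirus, ranged from 90.4 to 174 over the empty samples and from 1032 to 1560 over the Wnt5a samples. The labelled cell type was checked against 12 neuroendocrine markers, which all exceeded 1000 in every library. Their summed level ranged from 71510 to 72929 over the empty libraries and from 66322 to 69214 over the Wnt5a libraries. Summed leukocyte (4 genes) and endothelial (3 genes) markers stayed at or under 17.1 in every library. Lung epithelial markers (4 genes) summed to 44.4 to 47.9 and 42.5 to 42.7, and the 6 fibroblast markers to 355 to 604 and 244 to 248. The fibroblast sum was nearly all Dcn, which encodes decorin: the other 5 were under 10 in every library, with Col1a2 and Col3a1 at or near 0. In such bulk samples, fewer cells that express a gene and less RNA per cell cannot be told apart.

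Inhbb, which encodes the beta B subunit of activin B and inhibin B, was 2.35-fold lower in the Wnt5a libraries. The empty samples lay at 586, 674 and 752 (lowest, median, highest) and the Wnt5a samples at 257, 286 and 317, in normalised read counts. All 8 Wnt5a samples were below all 8 empty samples. Libraries A and B of the empty group were at 739 and 622, and those of the Wnt5a group at 302 and 277. The log2 difference of library means was -1.23 (SE 0.11, limma on log2(value + 1)), with -1.29 for the pair of A libraries and -1.16 for the pair of B libraries. Fibroblast markers, lower in the same libraries, and neuroendocrine markers moved in the same direction as Inhbb, and their part in its value was not tested. These values rest on 1181 to 2680 reads per library. Inhba, which encodes the beta A subunit, was close to the detection limit in both groups. It had 0 and 3 reads in empty libraries A and B, at or under the limit of 3 reads per library that a count of 0 allows (the floor), while the Wnt5a libraries had 10 and 23. The samples lay at 0, 0 and 1.02 in the empty group and at 0, 3.28 and 7.47 in the Wnt5a group, so the groups overlapped. Scaled to library depth, the ratio was 9.75 (95% interval 3.06 to 49.7, from 3 against 33 reads, counting error only).

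Inha, the alpha subunit gene, was level between the groups. The empty samples lay at 243, 287 and 304 and the Wnt5a samples at 258, 277 and 312, and the groups overlapped over most of their range. Library means were 280.8 ± 3.06 and 283 ± 0.138 (SD, n = 2), a log2 difference of 0.01 (SE 0.08). The balance of beta B to alpha transcripts therefore followed Inhbb. Per kilobase of transcript and within a sample, the ratio of Inhbb to Inha lay at 0.668, 0.879 and 0.981 (lowest, median, highest) in the empty samples and at 0.286, 0.358 and 0.409 in the Wnt5a samples. The 2 groups did not overlap in this ratio, which needs no scaling between samples. With Inha level, the ratio restates the lower Inhbb values known when the genes were chosen, over 2 libraries per group.

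**Figure D1:**
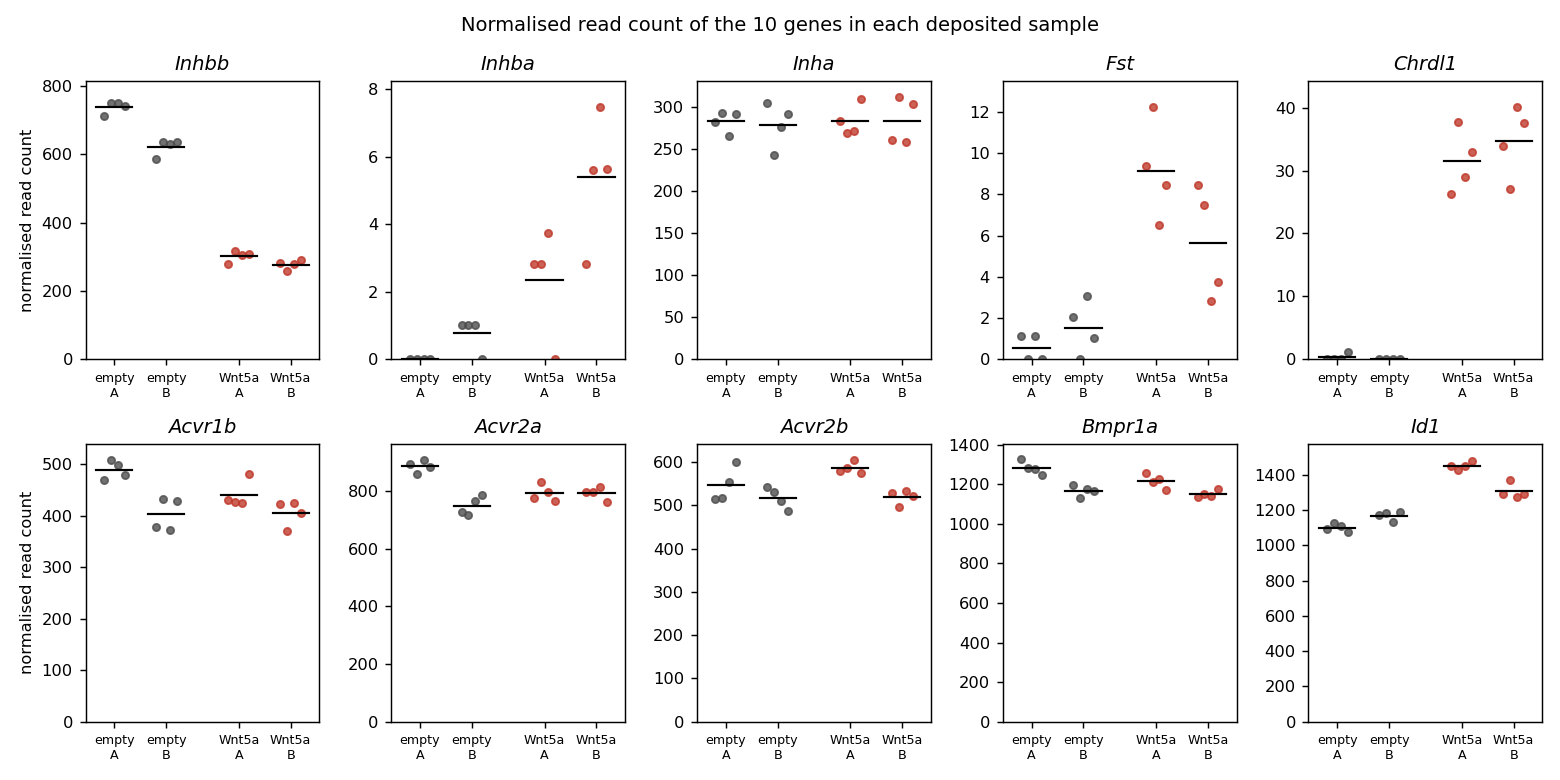
Normalised read count (vertical axis, linear from 0, a separate scale per gene) of the 10 genes in each of the 16 samples, by group and library (horizontal axis); points are samples and bars are library means. Inhbb, Chrdl1 and Id1 separate the groups without overlap, the receptors and Inha do not, and Inhba and Fst stay under 13. The 8 samples of a group come from 2 libraries, and the share of all genes without overlap was not counted.

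**Figure D2:**
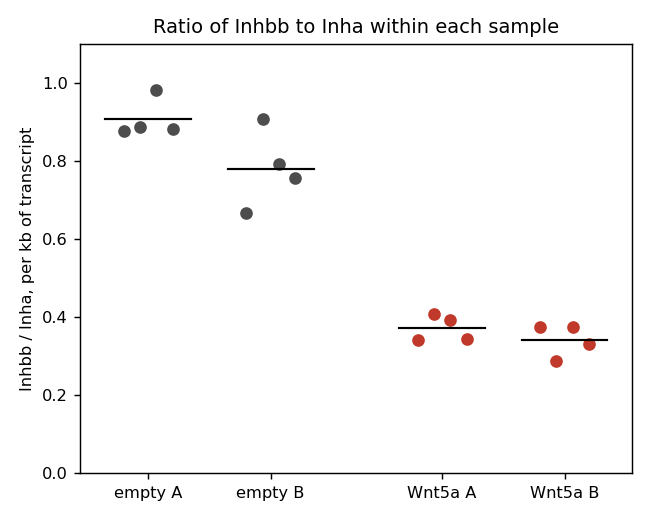
Ratio of Inhbb to Inha per kilobase of transcript (vertical axis, from 0) within each sample, by group and library (horizontal axis); points are samples and bars are means of 4 samples. The 8 empty samples lie at 0.668 or above and the 8 Wnt5a samples at 0.409 or below.

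Chrdl1, which encodes the BMP antagonist chordin-like 1, was at or near 0 in the empty cells and low but clear in the Wnt5a cells. Of the 8 empty samples, 7 had no read, and 1 read in the remaining sample gave a value of 1.10. The Wnt5a samples lay at 26.3, 33.4 and 40.2, and each of them was above every empty sample. The empty libraries held 1 and 0 reads, both under the floor, and the Wnt5a libraries held 134 and 148. The depth-scaled ratio was 250 with a 95% interval of 44.5 to 9904, from 1 against 282 reads and for counting error only, so its size is poorly determined. On the log2(value + 1) scale the difference was 4.91 (SE 0.31), a figure that depends on the added 1. Fst, which encodes follistatin, was low throughout. The empty samples lay at 0, 1.06 and 3.04 and the Wnt5a samples at 2.80, 7.97 and 12.3, and the groups overlapped. The ratio of Fst was 6.98 (95% interval 3.33 to 16.9, from 8 against 63 reads, counting error only), with 39 and 24 reads in Wnt5a libraries A and B.

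The activin receptors were abundant and similar in both groups. Acvr1b, a type I receptor of activin, lay at 371, 451 and 507 (empty samples) and at 370.5, 424 and 481 (Wnt5a samples). Acvr2a, a type II receptor, lay at 716, 822 and 909 in empty and 761, 797 and 832 in Wnt5a samples. Acvr2b, another type II receptor, lay at 487, 525 and 599 in empty and 497, 554 and 606 in Wnt5a samples. The groups overlapped for all 3 genes, and their log2 differences were -0.07 (SE 0.11), -0.04 (SE 0.10) and 0.05 (SE 0.09). Bmpr1a, a type I BMP receptor, lay at 1129.9, 1220.0 and 1328 in empty and 1137, 1172 and 1257 in Wnt5a samples, with overlap and a log2 difference of -0.05 (SE 0.08). These 4 receptor differences and that of Inha were within 0.1 on the log2 scale, where the median absolute difference of all 12357 genes tested was 0.105.

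Id1, which encodes an inhibitor of helix-loop-helix transcription factors and is induced by BMP receptors, was 1.22-fold higher in the Wnt5a libraries. The empty samples lay at 1078, 1129.5 and 1190.0 and the Wnt5a samples at 1276, 1400.0 and 1482, without overlap. Samples also did not overlap for 10 of the 49 other pathway genes tested (below), of which 1 was called. The share of all genes without overlap was not counted, and the 8 samples of a group come from 2 libraries. Nothing is therefore read from a lack of overlap, for Id1 or for the other genes. The log2 difference was 0.28 (SE 0.08), with 0.40 for the A pair and 0.16 for the B pair. The antagonist Chrdl1 and the BMP target Id1 were thus both higher in the Wnt5a group, and a link between them was not tested.

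Of the 10 genes, 8 had a mean value of at least 10 over all samples and entered the test, and Chrdl1 met that filter only through the Wnt5a group. Inhba and Fst did not enter it. Inhbb and Chrdl1 were the 2 of 8 called at a limma adjusted p under 0.05, beside 2.06% of all genes tested (254 of 12357). The share called higher was 1.38% and the share called lower 0.672%. The choice of the genes rested on this contrast, so nothing is read from their count.

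Levels were also ordered per kilobase of the longest coding transcript, since read counts grow with transcript length. In the empty cells the order was Id1 at 979 ± 41.1, Bmpr1a at 206 ± 13.8, Inha at 190 ± 2.07, Acvr2b at 168 ± 6.37, Inhbb at 160 ± 19.5, Acvr2a at 144 ± 17.1 and Acvr1b at 101 ± 13.7 normalised reads per kilobase (SD, n = 2). The library ranges of Inhbb overlapped those of Acvr2b above it and Acvr2a below it. Fst, Inhba and Chrdl1 were all under 1 per kilobase. In the Wnt5a cells Inhbb was at 68.0 ± 4.22, below Acvr1b at 95.8 ± 5.57 and above Chrdl1 at 8.08 ± 0.555, with library ranges apart on both sides. Fst at 2.61 ± 0.883 and Inhba at 0.605 ± 0.337 remained at the foot of the order. Among the beta subunits, transcripts of Inhbb thus exceeded those of Inhba per kilobase in both groups.

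The contrast of samples 5 to 8 with samples 1 to 4 was not used to choose the genes, and it shows how they varied between libraries of one group. A limma fit with group and sample set as terms called 0 of the 8 genes tested, beside 7.41% of all genes (916). At an unadjusted p under 0.05 there were 3, beside 28.7% of all genes, and edgeR and DESeq2 also called 0 (DESeq2 gave no adjusted p for Chrdl1). The lower values in samples 5 to 8 were -0.19 on the log2 scale for Inhbb (SE 0.06, limma adjusted p = 0.092), -0.20 for Acvr1b (SE 0.06, limma adjusted p = 0.092) and -0.11 for Bmpr1a (limma adjusted p = 0.171). Acvr2a (-0.12), Acvr2b (-0.13), Chrdl1 (-0.11), Id1 (-0.03) and Inha (-0.01) had limma adjusted p-values of 0.178 to 0.925. All 8 values were negative (that of Chrdl1 turned positive with a pseudocount of 10, quantile normalization or edgeR), with a median of -0.12, beside a median of -0.00073 and 50.2% negative values over all genes.

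The neighbours of Inhbb on chromosome 1 were mostly lower in the Wnt5a libraries as well. Of the 5 tested genes on each side, 9 of 10 were lower, with log2 differences from -0.46 to 0.09 and a median of -0.22. The nearest on one side, Tfcp2l1, which encodes a transcription factor, was at -0.46 (SE 0.08, limma adjusted p = 0.043). Ralb, which encodes a small GTPase and is nearest on the other side, was at -0.25 (limma adjusted p = 0.209). Among 40 genes on each side 73 of 80 were lower, and over the whole chromosome 612 of 689, with a median of -0.17. Inhbb lay far below that level, with a difference of -1.05 after the chromosome's median was taken off. Only 4 of the 689 genes, Inhbb included, were as low. Inhbb was chosen with its lower values known, so nothing is read from its rank among these genes or its neighbours. Inha, on the same chromosome, was at 0.19 after the same step. Of the 80 neighbours of Inhbb, 2 differed by at least as much as Inhbb before that step, Dpp10 at -1.27 and Serpinb12 at 1.34. The part of the chromosome-wide shift in the Inhbb value was not tested.

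Chromosome X, where Chrdl1 lies, showed no such shift, with a median log2 difference of -0.0064. The 10 nearest tested genes lay between -0.51 and 0.93 with a median of 0.02, and 5 of them were lower. The highest of these was Dcx, which encodes doublecortin, a microtubule-binding protein of neurons, at 0.93 (SE 0.36, limma adjusted p = 0.268). None of 80 neighbours differed by as much as Chrdl1, and the nearest was Tro at 2.52. Chrdl1 was chosen with its higher values known, so nothing is read from this rank either.

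**Figure D3:**
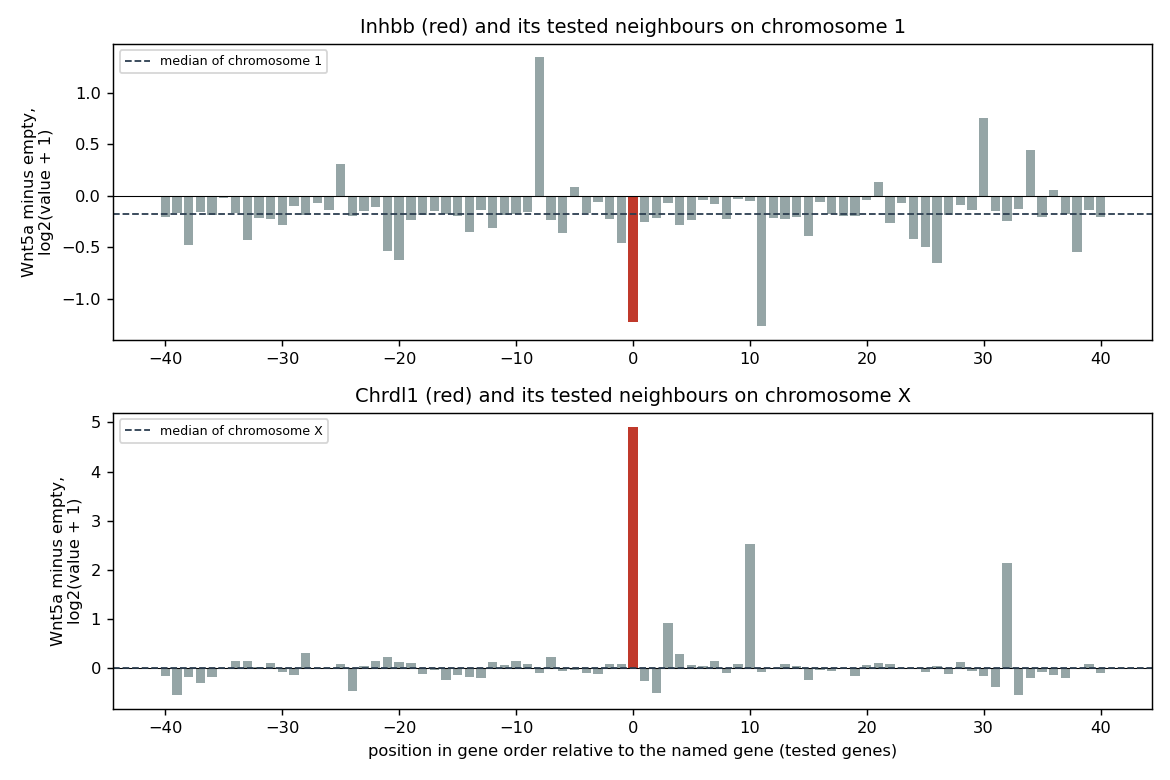
Log2 difference, Wnt5a minus empty (vertical axis, log2(value + 1)), of tested genes in RefSeq gene order around Inhbb (upper panel) and Chrdl1 (lower panel); the horizontal axis is the position in gene order, red bars are the named genes and dashed lines the chromosome medians of -0.17 and -0.0064. Most genes around Inhbb lie under 0 near the dashed line while Inhbb is at -1.23, and the genes around Chrdl1 scatter about 0.

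Other genes with the profile of Inhbb over the 4 libraries were found by the root mean squared distance between centred log2 values. The 5 nearest of the genes tested were AW551984 (distance 0.105), Dcc (0.108), Egfl6 (0.111), Klhl14 (0.123) and Vtn (0.124). They lie on chromosomes 9, 18, X, 18 and 11, and none on chromosome 1. Egfl6, which encodes a secreted protein with EGF-like repeats, was at 542 ± 7.08 with the empty vector and 247 ± 25.6 with Wnt5a (SD, n = 2 libraries). For Chrdl1 the nearest was Gabra4, a subunit gene of the GABA-A receptor, at a distance of 0.110, with values of 0.946 ± 0.615 (empty) and 57.8 ± 3.09 (Wnt5a; SD, n = 2). The next were B4gat1 (0.130), Klhdc8b (0.131), Ccdc71 (0.162) and Brms1 (0.199), each with 0 to 2 reads per empty library. B4gat1 and Brms1 are adjacent tested genes on chromosome 19, and Klhdc8b and Ccdc71 on chromosome 9. Likeness over 4 libraries is a description of profiles only.

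Beyond the 10 genes, 106 genes of the pathway were described by role. Of these 92 were in the files, 49 were tested and 1 was called (2.04%, beside 2.06% of all genes). Pmepa1, which encodes a membrane protein that sequesters Smad2 and Smad3, rose from 51.3 and 55.0 to 94.9 and 99.7. Its samples were apart (35.1 to 70.4 against 85.0 to 119), with a log2 difference of 0.86 (SE 0.13, limma adjusted p = 0.025). The Pmepa1 call was lost without the filter on low values (limma adjusted p = 0.078) and without Wnt5a library A (0.077) or B (0.132).

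The median log2 difference of the 49 genes was -0.08, 38 of them had lower values in the Wnt5a libraries, and 14 had an unadjusted p under 0.05, beside 16.1% of all genes. Over all genes the median was 0.0026 and 50.7% were higher. In the list of activin and TGF-beta type ligands 0 of 3 tested genes passed. Tgfb3, its most abundant ligand, was at -0.06, and Tgfb1 at -0.49 (limma adjusted p = 0.142). Neither of 2 tested BMP ligands passed. Bmp2, the more abundant, was at -0.27 (limma adjusted p = 0.432), and at -0.48 to -0.06 without 1 library. Bmp7 had the largest difference of the 5 tested ligands of both lists, from 28.4 and 18.8 to 53.0 and 53.2, which missed the threshold at a log2 difference of 1.16 (SE 0.22, limma adjusted p = 0.055). Its samples did not overlap (15.3 to 40.9 against 41.5 to 67.2).

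None of 7 other receptors and co-receptors tested passed, and all 7 had lower values, with a median of -0.19. Among them was Bmpr2, a type II BMP receptor and the most abundant of the list, at -0.23 (limma adjusted p = 0.401). Its difference was -0.05 after the median of its chromosome 1 was taken off. Acvr1, a type I BMP receptor, was at -0.19 (limma adjusted p = 0.285). Acvr1c, a type I receptor of nodal and activin B, was at -0.08 (limma adjusted p = 0.913). Of 16 other antagonists with values, 6 were tested and 0 passed (median -0.13). The most abundant, Twsg1, which modulates BMP binding, was at -0.02. Chrdl1 was thus not accompanied by a called change among these 6. Fst and the remaining antagonists of the list did not enter the test and could not be called. The 5 Smads tested had a median of -0.05 with 0 calls, and Smad5, the highest, was at -0.04. In the list of inhibitors inside the cell or its membrane, 1 of 10 tested genes passed, namely Pmepa1. Fkbp1a, the highest of them, which binds type I receptors, was at -0.06. Smurf2, a ubiquitin ligase for receptors and Smads, was at 0.27 (limma adjusted p = 0.127), or 0.10 after the median of its chromosome 11 was taken off. Smad6, an inhibitory Smad, was at 0.59 (SE 0.33, limma adjusted p = 0.472), which rested on Wnt5a library A: the libraries were at 50.3 and 23.9, and the value was 0.07 without library A and 1.11 without library B.

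Of the 5 genes for ligand processing and storage 0 passed. Furin, a protease that cleaves activin and BMP precursors and the highest of this list, was at -0.09. Tll1, which encodes a protease that cleaves chordin, had library values of 108 and 68.2 (empty) and of 36.4 and 21.3 (Wnt5a), a log2 difference of -1.59 that missed the threshold (SE 0.30, limma adjusted p = 0.059). The BMP targets beside Id1 were divided, with 3 higher and 3 lower values, a median of -0.00059 and 0 of 6 called. Id3, which like Id1 encodes an inhibitor of helix-loop-helix factors, was at 0.29 (limma adjusted p = 0.130) with no overlap between the samples (606 to 702 against 747 to 851). Atoh8 was at 0.58 (limma adjusted p = 0.189), Id2 at 0.13 (0.657), Id4, the highest, at -0.23 (0.620; -0.45 to -0.0071 without 1 library) and Hey1 at -0.37 (0.177). The 5 targets of activin and TGF-beta described here had lower values, with a median of -0.21, and 0 of 5 passed (2 at an unadjusted p under 0.05, beside the same 16.1%). Tsc22d1, the most abundant of these, was at -0.08 (limma adjusted p = 0.688), and the cell cycle inhibitor Cdkn1a was at -0.21 (0.201).

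**Figure D4:**
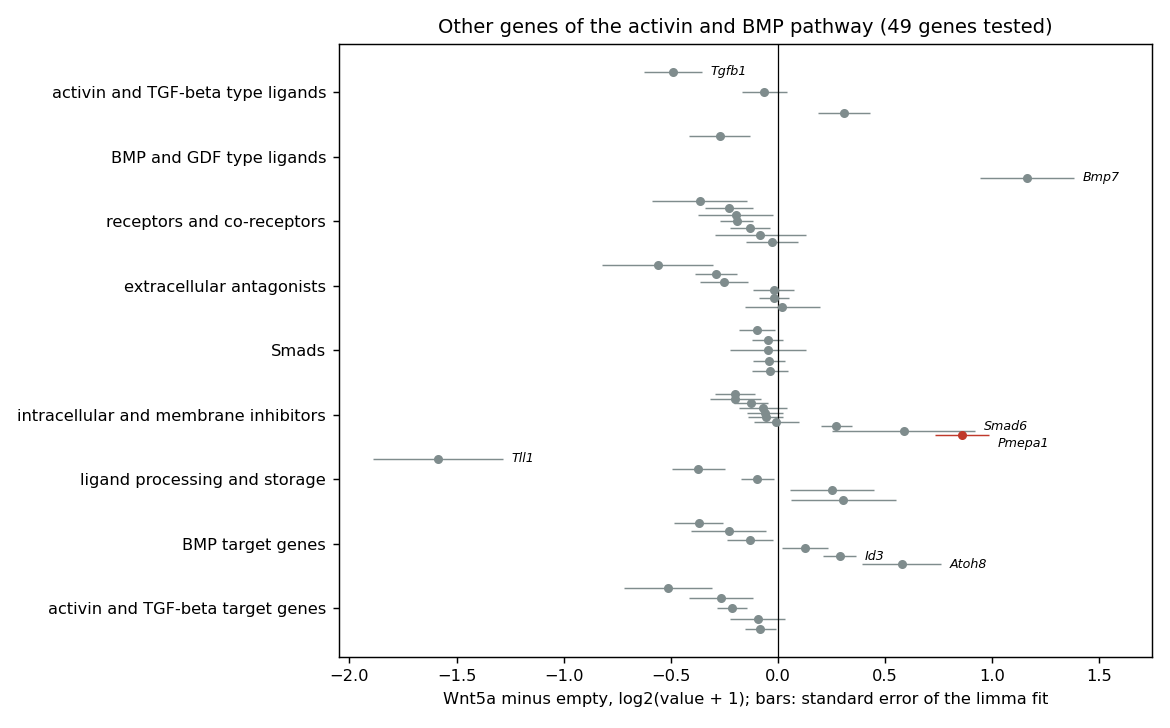
Log2 difference, Wnt5a minus empty (horizontal axis, log2(value + 1)), of the 49 tested genes of the activin and BMP pathway other than the 10 described first, by list (vertical axis); points are genes, bars the SE of the limma fit, and red marks an adjusted p under 0.05. Pmepa1 at 0.86 is the red point, and the 7 receptors, 5 Smads and 5 activin and TGF-beta targets shown lie left of 0.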

How the data were processed

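Poly(A) RNA of 16 samples was sequenced. The deposited signal values are read counts per gene divided by 1 size factor per sample: 100% were whole multiples of a step (tolerance 0.001 reads), from which whole reads were recovered. The submitters' processing notes name TopHat, Bowtie, HTSeq and DESeq2; versions, strand use, genome build and annotation are not given in the sources used here, and reads of overlapping or antisense genes may be shared.

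Samples of a group with an index of dispersion under 1.5 (genes with at least 10 mean reads) were averaged as 1 library. Genes with a mean value of at least 10 (12357) were compared with limma 3.58.1 (R 4.3.3; eBayes with trend) on log2(value + 1); p-values were adjusted over all of them (Benjamini-Hochberg, threshold 0.05). Alternatives (pseudocounts, filters, scalings, trend, replicate block, omitted libraries) included edgeR 4.0.16 and DESeq2 1.42.0 on whole reads, summed by library. The Wnt5a difference was 3.38 on the log2 scale (limma adjusted p = 0.0010); an exact permutation test of 2 against 2 libraries cannot go below p = 0.333. Symbols were matched to RefSeq GRCm38.p6 (17619 of 17655, 379 by synonym) for chromosomes and gene order, with lengths from GENCODE M21.

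The 10 genes and the lists were chosen with earlier results of these data known. By rule, the text names the 10 genes, Wnt5a, pathway genes with an adjusted p under 0.05 (1 listed gene is not reported here and is left out of the list counts), the most abundant gene of each list, 5 tested neighbours on each side, and the 5 nearest profiles. Tgfb1, Bmp7, Acvr1, Acvr1c, Smad6, Smurf2, Tll1, Id2, Id3, Atoh8, Hey1, Cdkn1a and Tro were named after their values were seen. So were Dpp10 and Serpinb12. Simulated data with known changes were used to test the fits.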

Additional observations from a re-analysis of the deposited data

Results flagged for a closer look

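One empty sample of Chrdl1 stood apart from the rest of its group: sample 4 was at 1.10, from 1 read, while the other 7 were at 0, so the gap equals the whole range (a gap over range of 1). The rule was taken to flag about 1 in 20 sets by chance, and 20 sets of 1 gene and 1 group were examined. That rate does not apply to this set, because with 1 read in 8 samples the gap always equals the range.

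For 2 of 31 genes examined, each of samples 5 to 8 stood above each of samples 1 to 4 in the empty group. In the Wnt5a group each of samples 5 to 8 stood below each of samples 1 to 4. The share of all genes with this pattern was not counted. Library means alone, without regard to overlap, also had these opposite signs for other genes, such as Atoh8 (0.10 empty, -0.35 Wnt5a). For Id1 the log2 difference between the sets was 0.09 in the empty and -0.15 in the Wnt5a group, which differ by -0.236. For Bmp2 it was 0.17 and -0.41, which differ by -0.582. The difference between groups was not tested for either gene.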

How the results depend on the processing

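Against 254 genes called (67.3% higher), the fit gave 146 with no filter, 102 with a minimum of 50, 158 without trend, 538 with DESeq2 and 4377 with all 16 samples counted separately. Leaving out 1 library gave 138 to 1098, with 166 and 138 without Wnt5a libraries A and B and 493 and 1098 without empty libraries A and B, where the lone sample is assumed to vary like the other group. Removing chromosome medians, chosen after seeing the data, gave 206, of which 56.8% were higher. Against 1 pathway gene, limma called 0 with no filter (23 at an unadjusted p under 0.05), 2 with a pseudocount of 10, 2 with quantile normalization, 27 with all samples separate and 0 to 9 without 1 library (0 without Wnt5a library B, with 8 at an unadjusted p under 0.05, 4 without empty library A, 9 without empty library B), and DESeq2 called 3. The cause was not tested.

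Same-numbered libraries deviated together (Pearson r 0.44 across genes, which are not independent replicates), but 2 pairs and labels that give no batch do not establish a pairing. With the replicate block 2095 genes and 16 pathway genes were called.

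For samples 5 to 8 against 1 to 4, limma called 0 genes with no filter (3512 at an unadjusted p under 0.05) and 0 without trend (2680), DESeq2 395 and edgeR 968, against 916. The Chrdl1 value there reversed to 0.0342 with a pseudocount of 10, 0.120 with quantile normalization and 0.114 with edgeR.

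Without 1 library, Tgfb3 ranged from -0.178 to 0.0530, Twsg1 from -0.0381 to 0.0032, Smad5 from -0.0955 to 0.0114, Fkbp1a from -0.125 to 0.0143 and Acvr1c from -0.268 to 0.107. In the alternatives run, the Inhbb log2 difference ranged from -1.35 to -1.05. Chrdl1 lay between 2.09 (pseudocount 10) and 7.96 (DESeq2; 7.42 with a pseudocount of 0.1), and Id1 between 0.206 and 0.356. Acvr1b, Acvr2a, Acvr2b and Bmpr1a changed sign when 1 library was left out.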
